A study of Mus musculus with 4 samples.

Results

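The replication-dependent histone genes were taken as the genes with symbols that begin Hist1h, Hist2h, Hist3h or Hist4h and that have at least 1 protein-coding transcript. They were 67 of 55536 annotated genes: 6 linker histone H1 genes, 18 H2A, 18 H2B, 12 H3 and 13 H4 genes. A further 3 such symbols had no protein-coding transcript and were left out. The study measured RNA from the cytosolic fraction of C57BL/6J mouse macrophages, grown from bone marrow and given 100 ng/ml lipid A, the membrane anchor of bacterial lipopolysaccharide and an agonist of Toll-like receptor 4, for 15 minutes. Ribosomal RNA was removed before sequencing, 1 µg of RNA went into each library, and the same conditions held for all 4 biological replicates. The replicates share 1 donor record, and their sex and age were not collected, so the values compare libraries of 1 condition. Whether they came from separate animals is not stated, and p-values here rest on the differences among these 4 libraries.

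These genes make the histones that package newly copied DNA, and their transcription and messenger RNA stability are coupled to S phase. Their messenger RNAs have no introns and no poly(A) tail in the usual form. They end instead just after a conserved stem-loop, which is bound by the stem-loop binding protein and cut with the help of the U7 small nuclear ribonucleoprotein. Some members can also give polyadenylated messenger RNA from a site further downstream, which is known to occur in cells that have left the cell cycle. Macrophages grown from bone marrow divide in culture under colony-stimulating factor 1, and lipid A is known to slow that division over hours.

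The annotated transcripts of 46 members held a stem-loop match after the stop codon. The sites below, 5′ to 3′ from GENCODE M21 transcripts, show how the stem and loop differ between members. Both are in capitals.
Hist1h1c: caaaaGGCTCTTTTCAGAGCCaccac
Hist1h2bb: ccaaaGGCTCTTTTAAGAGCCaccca
Hist2h2ac: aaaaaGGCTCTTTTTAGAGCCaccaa
Hist1h3g: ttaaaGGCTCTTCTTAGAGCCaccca
Hist1h4f: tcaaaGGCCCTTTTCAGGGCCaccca
Hist1h4a: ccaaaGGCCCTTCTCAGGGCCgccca
The form in Hist1h1c was the most common, in 26 members, and the form in Hist1h4f was in 7. The form in Hist1h2bb was in 6 members. For the other 21 members no match was found in the annotated model. Of these, 19 had models that end within 300 bases of the stop codon, many with no base after it. The model is the protein-coding transcript with the highest mean TPM. Hist1h2bq and Hist1h2br, among the 19, each have another coding transcript with 823 bases after the stop codon. For Hist1h2bq it held more counts than the model, 254 against 157 in replicate 1. The other 2, Hist1h2bc and Hist2h2be, had models that run on for 742 and 2192 bases after the stop codon.

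Expected counts totalled 30088678, 47961117, 40282297 and 45771235 in replicates 1 to 4, and the members took 0.135%, 0.0765%, 0.0811% and 0.0807% of them. TPM (transcripts per 1000000), the length-scaled level of a gene, divides a count by the effective length of the model and scales the sum of each library to the same total, and 57.1% to 63.3% of that total went to the 7SL RNA genes Rn7s1 and Rn7s2. The mean fragment length behind the effective lengths was 233, 216, 210 and 203 bases in replicates 1 to 4, and many member models are under 500 bases, so fragment length moves with the TPM of replicate 1; its part in those TPM values was not tested. Fold changes below come from counts. The macrophage label was met by 10 of 10 macrophage markers at a mean of at least 1 TPM, with Lyz2 at 4053 to 6886 TPM. None of the 6 T cell, 5 B cell, 5 erythroid, 4 dendritic, 5 stromal and 4 mast cell markers reached that mean, and 1 B cell and 2 erythroid markers were listed at 0. Of 7 neutrophil markers 3 did, and the list summed to 20.9, 26.7, 40.7 and 26.0 TPM.

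At a mean of at least 1 TPM, 61 of the 67 members were detected: 5 of 6 H1, 16 of 18 H2A, 16 of 18 H2B, 12 of 12 H3 and 12 of 13 H4 genes. The means of the detected members ran from 1.05 to 119 TPM with a median of 16.8 TPM. The 6 members below 1 TPM were Hist1h1t, the testis linker histone gene, Hist1h2aa, Hist1h2ba, Hist1h2ao, Hist3h2ba and Hist4h4, and their means reached at most 0.818 TPM. Hist1h2aa and Hist1h2ba, which are known from the male germ line, had no count in any gene table, and the target tables gave Hist1h2ba an estimated count of 1.05 in replicate 3. A count of 0 allows up to 3 counts, or 0.0626 to 0.0997 CPM by library (CPM, counts scaled by the library total), for counting error only.

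**Figure D1:**
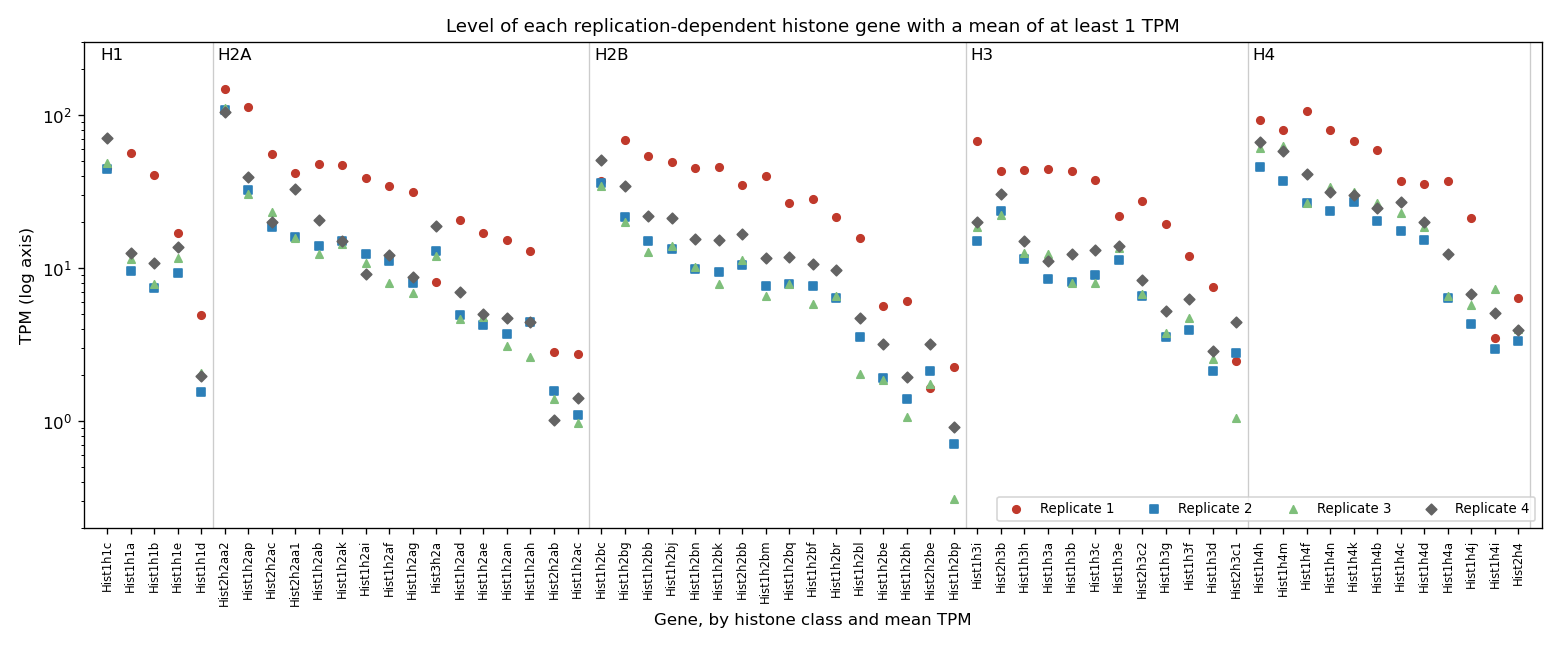
TPM (log axis) of the 61 members with a mean of at least 1 TPM, ordered by class and mean; each symbol is 1 library. Replicate 1 holds the highest value of 55 members, and Hist1h1c, Hist1h2bc, Hist2h2be, Hist3h2a, Hist2h3c1 and Hist1h4i are the members where it does not.

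Together the members summed to 2291, 836, 915 and 1124 TPM in replicates 1 to 4, so that the level in replicate 1 was 2.39 times the mean of the other 3 libraries in the gene tables and 4.81 times in the target tables. In CPM the sums were 1351, 765, 811 and 807, a ratio of 1.70. The other 3 libraries lay close together on both scales and replicate 1 did not overlap them. Whether a library held more cells with histone RNA or more histone RNA per cell cannot be told apart in bulk RNA.

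The nucleosome core classes and H1 differed in level. H4, which pairs with H3 at the centre of the nucleosome, had 29.5% ± 2.93 (SD, n = 4) of the summed member TPM, and H2A had 29.1% ± 2.25 (SD, n = 4). These shares did not differ beyond their spread. H2B, the partner of H2A, had 19.1% ± 2.46 (SD, n = 4), H3 had 13.6% ± 1.78 (SD, n = 4) and the linker histone H1 had 8.68% ± 1.08 (SD, n = 4). By expected counts, which are not divided by length, the order was another one, with H1 at 24.4% and H4 at 20.3%; H1 models run from 741 to 7425 bases and H4 models start at 312 bases.

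**Figure D2:**
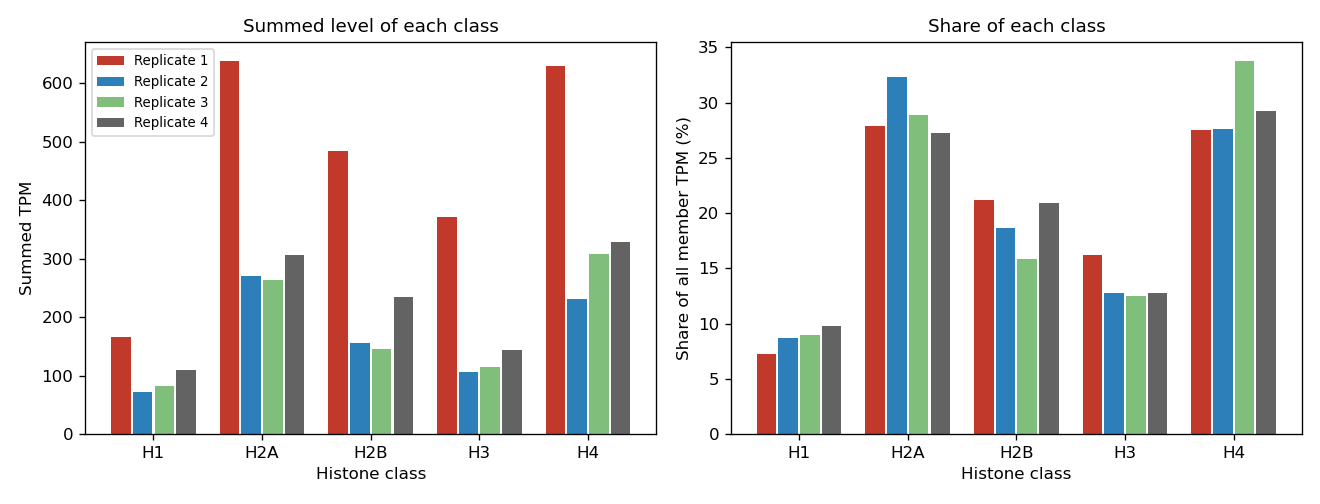
Summed TPM (left) and share of the summed member TPM in percent (right) of each histone class; each bar is 1 library. Every class sum is highest in replicate 1, while the shares move by a few percentage points, H3 from 12.5% to 16.2% and H4 from 27.5% to 33.8%.

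Every class had its highest sum in replicate 1, and the classes did not move by the same factor. H3 genes summed to 372 TPM in replicate 1 and to 106, 114 and 144 TPM in replicates 2 to 4, a ratio of 3.06 to the mean of the others. The ratio was 2.72 for H2B, 2.28 for H2A, 2.18 for H4 and 1.87 for H1. H4 took its largest share in replicate 3, at 33.8%, against 27.5%, 27.6% and 29.3% in replicates 1, 2 and 4, while H2B took its smallest share there, at 15.9%. These differences of class shares were not tested.

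By locus, the Hist1 genes of chromosome 13 held 78.4% ± 3.72 (SD, n = 4) of the member TPM over 54 genes. The Hist2 genes of chromosome 3 held 20.3% ± 3.17 (SD, n = 4) over 10 genes. The 2 Hist3 genes of chromosome 11 held 1.25% ± 0.604 (SD, n = 4), and Hist4h4, the lone Hist4 gene on chromosome 6, held 0.0693% ± 0.0168 (SD, n = 4). Hist1 had 83.7% of the total in replicate 1 and 75.1% to 78.1% in replicates 2 to 4, and Hist2 had 15.9% and 20.2% to 23.3%. Hist3 was the locus with a lower sum in replicate 1, at 8.54 TPM against 13.3, 12.3 and 19.0 TPM.

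Each library was tested against the other 3 with edgeR's quasi-likelihood test over the 14041 genes whose counts averaged 10 or more, Benjamini-Hochberg adjusted, and a gene was called at an adjusted p under 0.05. The lone library was assumed to vary like the others. Of the 62 members tested, 40 were higher and 4 lower in replicate 1, where 14.5% of all genes tested were called higher and 7.58% lower. The median log2 fold change of the members was 1.27, beside -0.0046 over all genes. In replicates 2, 3 and 4 no member was called, higher or lower, and edgeR called no other gene there either (0.0%). At an unadjusted p under 0.05, 0, 2 and 1 members passed there by edgeR, beside 1.97%, 0.962% and 0.741% of all genes tested. DESeq2 called 0 members in each, and 8, 3 and 17 genes in all. These contrasts share libraries, so the negative medians of replicates 2 to 4, -0.53, -0.47 and -0.60, contain the high values of replicate 1. Replicate 1 also enters the spread there. The SE of Hist1h1a was 0.17 in the contrast of replicate 1 and 1.01, 1.10 and 1.00 in those of replicates 2 to 4. The lack of calls in those contrasts thus cannot by itself show that replicates 2 to 4 agree.

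**Figure D3:**
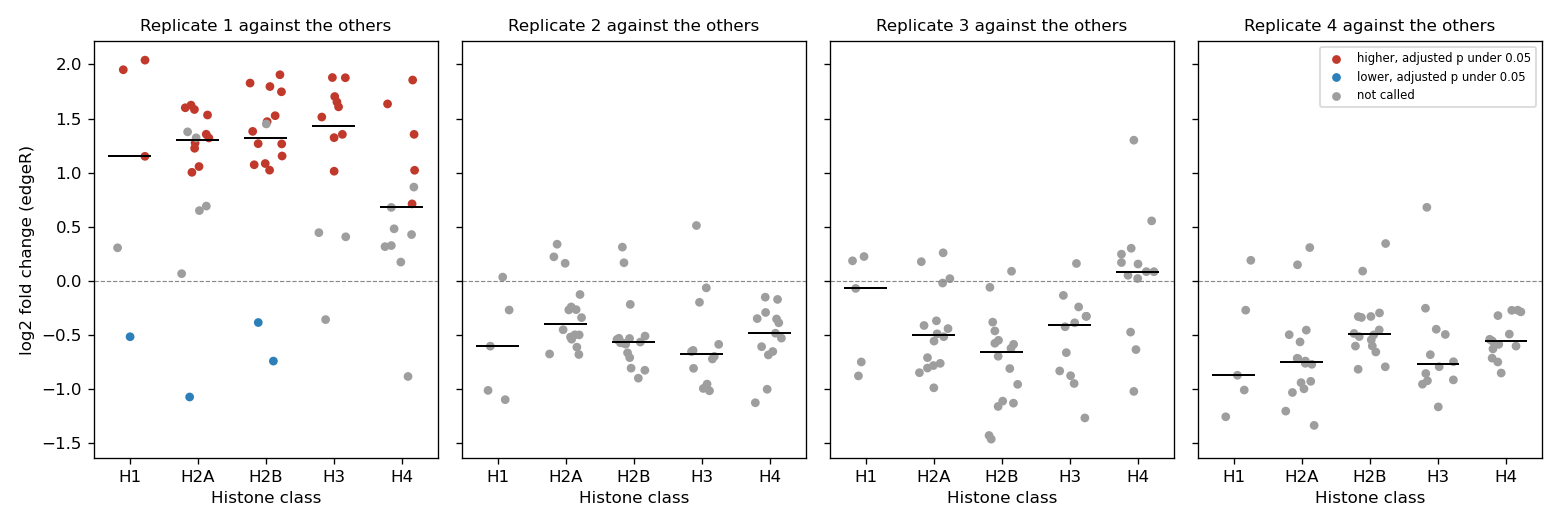
edgeR log2 fold change of the 62 tested members in each replicate against the other 3, by histone class; each point is a gene, bars are class medians, red is called higher and blue called lower. Called members stand in replicate 1 alone, 40 higher and 4 lower, and H4 has the lowest class median there, 0.68.

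By class, 13 of 16 H2B, 9 of 12 H3, 10 of 16 H2A, 5 of 13 H4 and 3 of 5 H1 genes were called higher in replicate 1. The median log2 fold changes were 1.32, 1.43, 1.30, 0.68 and 1.15 in the same order. H4 thus had 8 genes that were not called, with the class difference itself not tested. The 40 higher members had log2 fold changes from 0.71 to 2.04 and adjusted p from 0.00228 to 0.0466. The 18 that were not called ran from -0.88 to 1.45.

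The linker histone genes did not all move together. Hist1h1a, at chr13:23763666-23764406 on the plus strand (mm10), was at 57.1 TPM in replicate 1 and at 9.55, 11.6 and 12.6 TPM in replicates 2 to 4. Hist1h1b was at 41.0 TPM in replicate 1 and at 7.41, 7.91 and 10.8 TPM in the others. For both genes replicate 1 lay far above the rest, with log2 fold changes of 2.04 ± 0.17 (SE, adjusted p = 0.00367 by edgeR) and 1.95 ± 0.10 (SE, adjusted p = 0.00228 by edgeR). Hist1h1c, the most abundant H1 gene at a mean of 52.5 TPM, was at 45.3 TPM in replicate 1 and at 44.7, 48.9 and 71.2 TPM in replicates 2 to 4. It was called lower, by -0.51 ± 0.10 on the log2 scale (SE, adjusted p = 0.0223 by edgeR), and the call was lost with library totals and with the target tables, at -0.40 and -0.35. Its TPM values overlap between the libraries; in CPM, not scaled for length, replicate 1 was the lowest, at 96.1 against 117, 125 and 138. Hist1h1d was higher, at 4.95 TPM against 1.55, 2.07 and 1.97 TPM, and Hist1h1e was not called, at 17.1 TPM against 9.31, 11.8 and 13.7 TPM.

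Hist2h2aa2 was the most abundant member, an H2A gene of the Hist2 cluster at 148, 109, 112 and 105 TPM. It was not called, with a log2 fold change of 0.07 ± 0.25 (SE, adjusted p = 0.867 by edgeR). Its coding sequence is identical to that of its neighbour Hist2h2aa1, at 41.9, 16.1, 15.7 and 32.8 TPM, so the split between the pair is uncertain. Hist1h2ap, with the same coding sequence as Hist1h2ao, was at 113 TPM against 32.4, 30.7 and 39.6 TPM and higher by 1.35 ± 0.11 (SE, adjusted p = 0.00378 by edgeR). Hist2h2ac was also higher, at 55.9 TPM against 18.7, 23.2 and 20.2 TPM. Both had replicate 1 clear of the other libraries.

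Among H2B genes the largest change was in Hist1h2bm, at 40.4 TPM in replicate 1 and 7.70, 6.58 and 11.7 TPM in replicates 2 to 4, a log2 fold change of 1.90 ± 0.15 (SE, adjusted p = 0.00359 by edgeR). Hist1h2bg was at 69.0 TPM against 21.5, 20.1 and 34.6 TPM, and Hist1h2bb at 54.2 TPM against 15.1, 12.7 and 21.9 TPM. Both were called higher. Hist1h2bc, the most abundant H2B gene at a mean of 39.8 TPM, did the opposite: 37.2 TPM against 36.3, 34.6 and 51.1 TPM, and a log2 fold change of -0.38 ± 0.08 (SE, adjusted p = 0.0315 by edgeR).

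The product of Hist1h2bc has the same coded residues as those of Hist1h2be and Hist1h2bg. Hist1h2be was at 5.69 TPM in replicate 1 and 1.91, 1.85 and 3.20 TPM in the others, and was called higher by 1.08 ± 0.13 (SE, adjusted p = 0.00728 by edgeR). Genes with the same product were thus called in opposite directions in replicate 1, though the call of Hist1h2bc was lost with library totals and with the target tables, at log2 fold changes of -0.27 and -0.07. The 4 H3 genes with the H3.1 product summed to 176 TPM against 38.6, 47.4 and 51.3 TPM. The 7 with the H3.2 product summed to 193 TPM against 64.9, 66.0 and 87.7 TPM. All 4 of the former and 5 of the latter were called higher.

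The H3 genes with the largest log2 fold changes were Hist1h3b, at 1.88 ± 0.10 (SE, adjusted p = 0.00234 by edgeR), and Hist1h3g, at 1.88 ± 0.20 (SE, adjusted p = 0.00565 by edgeR). Hist1h3b was at 43.1 TPM in replicate 1 and at 8.16, 8.05 and 12.5 TPM in the others, and Hist1h3g at 19.4 TPM and at 3.54, 3.78 and 5.27 TPM. Hist1h3i, the most abundant H3 gene, was at 68.3 TPM against 15.2, 18.7 and 19.9 TPM, and Hist1h3h was at 44.0 TPM against 11.4, 12.6 and 15.0 TPM. In all 4 genes the level of replicate 1 was above every other library. Hist2h3b was likewise highest in replicate 1, at 43.2 TPM against 23.7, 22.3 and 30.5 TPM, but was not called, with a log2 fold change of 0.41 ± 0.11 (SE, adjusted p = 0.0542 by edgeR).

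All 13 H4 genes code for 1 product, and they spread widely. Hist1h4f was at 106 TPM in replicate 1 and at 26.7, 26.7 and 41.4 TPM in replicates 2 to 4, and was called higher by 1.35 ± 0.11 (SE, adjusted p = 0.00354 by edgeR). Hist1h4h, the most abundant, was at 93.9, 45.7, 61.0 and 67.0 TPM, and Hist1h4m at 79.9, 37.1, 63.1 and 58.1 TPM. Neither was called, with log2 fold changes of 0.33 ± 0.20 (SE, adjusted p = 0.297 by edgeR) and 0.17 ± 0.32 (SE, adjusted p = 0.724 by edgeR). Hist1h4m and Hist1h4n share a coding sequence, so the split between this pair is uncertain too. Hist1h4n was at 80.3 TPM in replicate 1 and at 23.8, 34.0 and 31.6 TPM in replicates 2 to 4, higher by 1.02. In replicate 3, whose own contrast called nothing, H4 was the class with a positive median log2 fold change, 0.09, against -0.07 to -0.66 in the other classes, and with library totals in place of TMM factors all genes of that contrast shift by -0.14.

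Of the Hist1 genes tested, 37 of 50 were higher and 2 lower in replicate 1, with a median log2 fold change of 1.34. They lie in blocks on chromosome 13 that are over 1000000 bases apart, with 16 of 22 and 21 of 28 genes higher. Of the 10 Hist2 genes 3 were higher and 1 lower, with a median of 0.57. Hist2h3c2 was at 27.6 TPM against 6.59, 6.74 and 8.41 TPM, higher by 1.65 ± 0.12 (SE, adjusted p = 0.00330 by edgeR), and Hist2h2bb at 34.9 TPM against 10.6, 11.4 and 16.8 TPM, higher by 1.02 ± 0.18 (SE, adjusted p = 0.0191 by edgeR). Replicate 1 was clear of the other libraries in both. Over all genes tested, 14.5% were called higher and 7.58% lower, and the Hist2 counts lie nearer these shares than those of Hist1. The 10 Hist2 genes include the pair Hist2h2aa1 and Hist2h2aa2, whose split is uncertain, and the difference between loci was not tested. The H4 gene Hist2h4, at 6.36 TPM against 3.35, 3.98 and 3.93 TPM, and the H2A gene Hist2h2ab, at 2.84 TPM against 1.58, 1.39 and 1.01 TPM, were not called.

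The 4 members called lower in replicate 1 were Hist3h2a, Hist2h2be, Hist1h1c and Hist1h2bc. Hist3h2a, on chromosome 11, was at 8.16 TPM in replicate 1 and at 13.0, 11.9 and 18.9 TPM in the others, and its log2 fold change was -1.07 ± 0.10 (SE, adjusted p = 0.00479 by edgeR). Hist2h2be was at 1.64 TPM against 2.12, 1.75 and 3.19 TPM, with -0.74 ± 0.18 (SE, adjusted p = 0.0420 by edgeR). Replicate 1 was the lowest library for both. Hist3h2a was called lower under every alternative; with library totals in place of TMM factors, or with the counts of the target tables, it was the 1 member called lower, and without replicate 2 there were 2.

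The annotated models of these 4 genes all run more than 300 bases beyond the stem-loop or, where none was found, beyond the stop codon. Of the 25 tested members with a model that ends within 300 bases of the stem-loop, 19 were higher and 0 lower, with a median log2 fold change of 1.38. Of 17 with a model that ends before a stem-loop, 12 were higher and 0 lower, with a median of 1.32. Of 18 that run further, 9 were higher and 2 lower, with a median of 0.60, and both with no match over a long model were lower. This grouping was set after the values were seen and got no test. It used the coding transcript with the highest mean TPM, which placed Hist1h2bq among the short models although its longer transcript held more counts in every library. Hist1h1d and Hist1h2bh have long models too, with 4884 and 1214 bases past the loop, and both were higher.

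**Figure D4:**
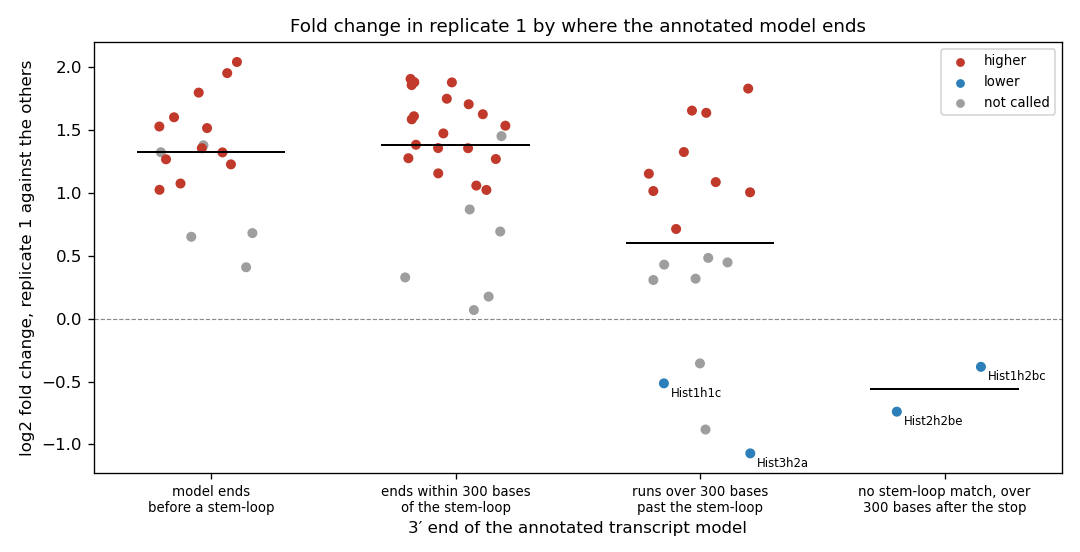
edgeR log2 fold change of replicate 1 against the other 3 by where the annotated model ends; each point is a tested member and bars are medians. The 4 members called lower, named in the plot, all lie in the groups with long models, whose medians are 0.60 and -0.56 against 1.32 and 1.38.

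H2A and H2B genes often lie head to head. In 12 pairs, 1 H2A and 1 H2B gene start on opposite strands within 500 bases of each other, with 175 to 305 bases between the starts. Of the 10 pairs with both genes tested, 8 had positive log2 fold changes on both sides in replicate 1. There 56 of the 62 tested members were positive, and the pair count is near what that share alone would give. The median gap between partners was 0.37, and the gap between unpaired members was not computed. In the other 2 pairs the partners parted. Hist2h2ac was at 1.06 and Hist2h2be at -0.74, and Hist1h2ac was at 1.00 and Hist1h2bc at -0.38. The 238 and 250 bases between the starts are common to both genes of each pair.

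Promoters were read from RefSeq (GRCm38.p6) for 62 of 67 members. In the 250 bases before the start, on either strand, CCAAT was found in 82.3% of the members, against 33.8% of 32817 promoters of all genes. It was in 6 of 6 H1, 18 of 18 H2A and 16 of 16 H2B genes but in 3 of 12 H4 genes. TATAAA was in 46.8% of the members and in 12.4% of all promoters. The octamer ATTTGCAT was in 7 of 18 H2A and 6 of 16 H2B genes and in no H1, H3 or H4 gene, against 1.60% of all promoters. The windows of head-to-head H2A and H2B genes share DNA, so 1 site can count for both classes. The octamers of Hist1h2ae and Hist1h2bg, 128 and 59 bases before their starts, are the same site. Hist1h2bq and Hist1h2br have identical letters in the 150 bases before the start. The H2A and H2B counts are thus not all of separate promoters. AAACACA, known as the H1 box, was in 5 of 6 H1 genes, against 6.25% of all promoters. TTTGGCGC was in 0 members and 0.417% of all promoters, and TTTCCCGC in 1 member, Hist1h4a, and 0.893%.

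The 150 bases before the start of 5 members show these letters; matches are in capitals on either strand. Hist1h1b, Hist1h2bm and Hist1h4a were higher in replicate 1, and Hist1h1c and Hist3h2a lower. They lie at chr13:21780626-21780775 (minus strand), chr13:21721894-21722043 (plus), chr13:23761250-23761399 (minus), chr13:23738657-23738806 (plus) and chr11:58954535-58954684 (plus).
Hist1h1b: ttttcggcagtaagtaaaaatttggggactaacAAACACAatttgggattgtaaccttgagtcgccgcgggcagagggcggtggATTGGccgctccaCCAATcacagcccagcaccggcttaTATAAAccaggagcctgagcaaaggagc
Hist1h2bm: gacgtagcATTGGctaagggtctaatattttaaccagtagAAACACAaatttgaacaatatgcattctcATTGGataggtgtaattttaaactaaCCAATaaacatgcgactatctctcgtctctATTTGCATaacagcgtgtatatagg
Hist1h4a: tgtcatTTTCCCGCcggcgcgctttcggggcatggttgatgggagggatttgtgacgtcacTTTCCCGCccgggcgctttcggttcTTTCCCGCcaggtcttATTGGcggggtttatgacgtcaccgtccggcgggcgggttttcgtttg
Hist1h1c: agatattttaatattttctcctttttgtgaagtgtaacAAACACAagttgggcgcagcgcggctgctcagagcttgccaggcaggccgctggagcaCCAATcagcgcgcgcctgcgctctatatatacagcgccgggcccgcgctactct
Hist3h2a: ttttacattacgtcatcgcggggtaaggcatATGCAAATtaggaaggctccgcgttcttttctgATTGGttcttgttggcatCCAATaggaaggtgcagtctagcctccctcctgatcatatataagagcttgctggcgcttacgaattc
Of the linker histone genes shown, Hist1h1b was called higher, and Hist1h1c was called lower with the limits given above. Both hold an H1 box, 117 and 112 bases before the start, and CCAAT at 53 and 54 bases. They differ in the exact letters TATAAA, which Hist1h1b holds at 28 bases and Hist1h1c lacks. Hist1h1c holds tatatata near the same place, which the search did not count. Hist3h2a holds the octamer and CCAAT, as do Hist1h2ab, Hist1h2ac, Hist1h2ae and Hist2h2ac among the 10 H2A genes that were higher. A match describes letters only.

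By a Poisson deviance test across the 4 libraries, 62 of 62 tested members varied beyond counting error, where 82.8% of all genes did. Without replicate 1 the count was 34 of 62, where 60.1% of all genes did.

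The other genes of histone supply were read in the same contrast, where 14.5% of all genes tested were called higher and 7.58% lower. Of 27 S phase genes, 27 were higher in replicate 1, with a median log2 fold change of 2.22, and their summed level was 604 TPM against 142, 149 and 196 TPM. Ccne2, a cyclin of S phase entry, was at 7.37 TPM against 0.55, 0.58 and 1.14 TPM, and Rrm2, a ribonucleotide reductase subunit, at 14.9 TPM against 1.72, 1.49 and 2.66 TPM. The list moved with the histone genes in replicate 1, and its part in their values was not tested. Of 18 histone mRNA processing genes, 9 were higher and 0 lower, with a median of 0.39. Slbp, which encodes the stem-loop binding protein, was at 20.1 TPM against 7.05, 7.13 and 10.5 TPM and higher by 1.09 ± 0.09 (SE, adjusted p = 0.00357 by edgeR). Npat, the coactivator of these genes, was not called, at 3.88 TPM against 2.14, 1.97 and 3.45 TPM.

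Of 18 histone chaperone genes, 12 were higher and 2 lower in replicate 1, with a median of 0.63. The largest changes were in Chaf1a, a subunit of chromatin assembly factor 1, higher by 2.07, and Asf1b, a chaperone of H3 and H4, higher by 1.89. The lower genes were Ubn1, at -0.49, and Daxx, at -0.34. Of 11 replication-independent variant genes 10 were tested, with 2 higher, 2 lower and a median of -0.39. H2afx and H2afz were the higher ones, by 0.84 and 0.40, and H2afj and the centromere variant Cenpa the lower ones, by -0.67 and -2.12. With 10 genes tested, these variant counts lie near the shares over all genes given above. In replicates 2 to 4 none of the genes in these 4 lists was called, in contrasts whose spread includes replicate 1.

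**Figure D5:**
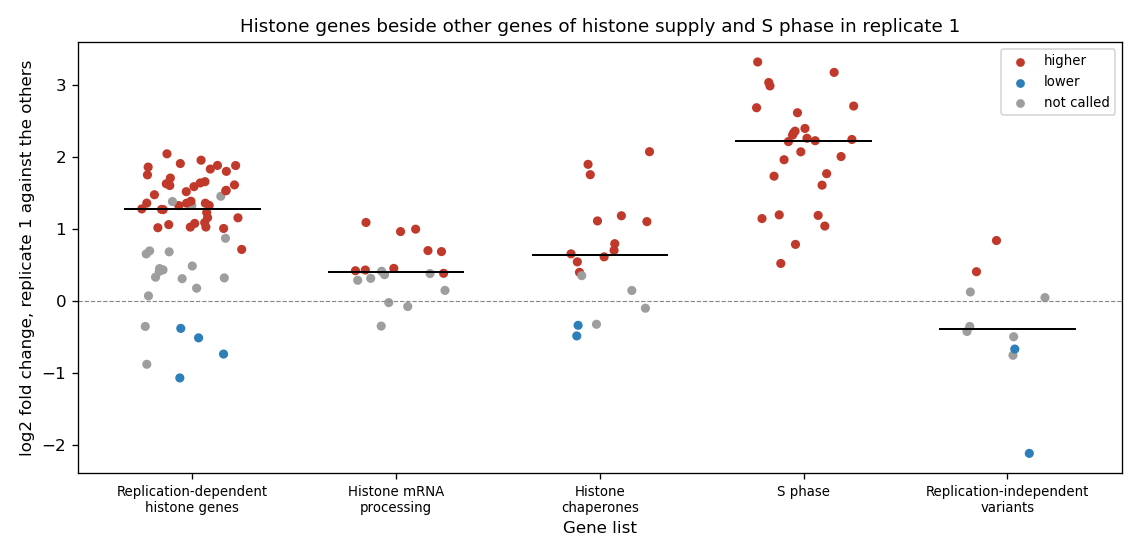
edgeR log2 fold change of replicate 1 against the other 3 for the 62 tested members and for 4 lists of related genes; each point is a gene and bars are medians. The medians are 1.27 for the members, 0.39 for processing, 0.63 for chaperones, 2.22 for S phase and -0.39 for the replication-independent variants.

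The gene tables and the target tables, which hold a second quantification of the same libraries, agreed for most members. Over the 62 members with a mean count of at least 10, 50 differed by at most 0.5 on the log2 scale, with a pseudocount of 1. Of all 67, 5 differed by more than 1. Hist2h3c1 differed most, with a count higher by 3.07 in the gene tables, and it was at 2.46, 2.81, 1.05 and 4.47 TPM. Hist1h2ah, Hist1h4k and Hist1h2ak were lower in the gene tables, by -1.17, -1.09 and -1.02, as was Hist1h2ao, with a mean count under 10, by -1.01. Hist1h2bq was higher by 0.95. Hist1h2bq and Hist1h2br have transcripts with the same coding sequence. These transcripts were given the same counts, 157, 101, 87.3 and 116 in replicates 1 to 4. The results of both genes in replicate 1 thus rest in part on the same reads and are not separate. Hist1h2bq was the 1 member with at least 2 transcripts at a mean of 1 TPM, at 11.1 and 2.50 TPM. Summed TPM in the target tables was 1405, 306, 252 and 318. Annotated spans of 24 members overlap another gene, and the strand setting used for counting was not given in the labels or the files.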

How the data were processed

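Cytosolic RNA of 4 macrophage libraries was sequenced after ribosomal RNA depletion. Per the deposited text, the build is mm10 with GENCODE M21; neither labels nor files name the quantifier. The authors deposited expected counts and TPM per gene, the same per transcript with the percent of each gene's expression in each isoform, and target tables with estimated counts and TPM. The deposited gene tables also hold the posterior standard deviation of each count as another measure. Features without a gene symbol took 0.0267% to 0.407% of counts and stayed out of tests.

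Expected counts were rounded to whole numbers and tested with edgeR 4.0.16 (R 4.3.3; TMM factors, 14041 genes averaging at least 10 counts), each replicate against the other 3, after the scripts were tested on simulated data. TPM sums, shares and overlaps used Python 3.11.15 with pandas 2.3.3. Alternatives were library totals, DESeq2 1.42.0, no count filter, the target tables, expected counts, other pseudocounts and leaving out each replicate. Stem-loops were matched to GENCODE M21 transcripts with at most 1 mismatch in 16 letters, and promoters to RefSeq through Entrez identifiers. The genes named are the 3 highest of each class, the 5 largest changes in each direction, those against the majority, the Hist2, Hist3 and Hist4 genes, the 5 with the largest difference between tables among those averaging at least 10 counts, and those with several transcripts. The members, lists and rules were chosen with earlier results of these data known.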

Additional observations from a re-analysis of the deposited data

Results flagged for a closer look

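A library far from the other 3 was looked for in 40 sums and named genes by Dixon's 95% criterion for 4 values. Chance flags about 1 in 20 such groups; 17 were flagged, 15 of them for replicate 1, and many of these genes move together. The class sums of H2A, at 638 TPM, and H3, at 372 TPM, stood apart in replicate 1. So did Hist1h1a at 57.1 TPM, Hist1h1b at 41.0 TPM, Hist1h2ak at 47.2 TPM, Hist1h2ap at 113 TPM and Hist1h2bm at 40.4 TPM. Among H3 genes the flagged levels were Hist1h3b at 43.1 TPM, Hist1h3g at 19.4 TPM, Hist1h3h at 44.0 TPM, Hist1h3i at 68.3 TPM and Hist2h3c2 at 27.6 TPM. Hist1h4k at 68.3 TPM, Hist2h2aa2 at 148 TPM and Hist2h2ac at 55.9 TPM were the others of replicate 1. Replicate 4 stood apart in TPM for Hist1h1c, at 71.2 TPM, and for Hist1h2bc, at 51.1 TPM. From counts, the log2 fold changes of these genes in replicate 4 were 0.19 and 0.09. That of Hist2h2aa2 in replicate 1 was 0.07. Each was smaller than its SE, so the flags of these genes hold for TPM and not for counts. Hist1h4k had a log2 fold change of 0.68 ± 0.24 (SE) from counts in replicate 1 and was not called.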

How the results depend on the processing

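The count of members higher in replicate 1 stayed between 37 and 46 in every alternative, and no member was called in replicates 2 to 4 in any. The 4 lower members became 1 with library totals, 1 with the target tables and 2 to 4 without 1 of the other replicates. Members varying beyond counting ranged from 34 to 62 when a replicate was left out, with 34 without replicate 1. By expected counts, the shares were 24.4% for H1, 23.3% for H2A, 20.3% for H4, 17.0% for Hist2, 5.07% for Hist3 and 0.404% for Hist4, which counts length in; H2B, H3 and Hist1 stayed within 1 SD. Hist4 is 0% among members of at least 1 TPM. The mean summed TPM was 570.5 in the target tables and 3160 with 7SL RNA left out of the denominator. Members that differ by over 1 log2 unit between tables numbered 3 with a pseudocount of 10. The log2 fold change of Hist2h2aa2, with 1 replicate left out at a time, ranged from -0.18 (without replicate 4) to 0.18, and that of Hist2h3c1 to 1.11 with the target tables. The cause was not tested. Library totals shift all genes by 0.11 in replicate 1 with no member changing sign, and by -0.14 in replicate 3 with 6 changing sign. Hist1h2bp, with 7.58 to 29.8 counts a library, had an SE of 0.67 on the log2 scale. No paired analysis was possible because there is 1 group.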
